A study of Homo sapiens with 6 samples.

Results

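The small nucleolar RNA (snoRNA) host genes were examined in MV4-11 cells with and without a knockdown of ENO1, which encodes the enolase of glycolysis. MV4-11 is a long-established line of human acute myeloid leukaemia. The genes were chosen by name: every row whose Ensembl ID maps to a symbol starting with SNHG, and GAS5, ZFAS1, EPB41L4A-AS1, CYTOR and DANCR. The rule found 32 genes among the 23227 in the table, and 29 of the 32 passed the filter on low counts that left 14635 genes to test. RNA was sequenced in 3 libraries labelled as ENO1 knockdown and 3 labelled as untreated, all of MV4-11 with the genotype given as WT. The column names of the knockdown libraries name 1 hairpin, and nothing states whether the controls, which carry the letters NC in their titles, held a control hairpin. Separate cultures are not stated for the replicates either, so p-values measure only how these libraries spread, and that spread may be technical.

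snoRNAs guide the chemical modification of ribosomal RNA, box C/D snoRNAs towards ribose methylation and box H/ACA snoRNAs towards pseudouridylation, and most human snoRNAs are cut out of the introns of a host gene. Some hosts encode ribosomal proteins or translation factors, while those described here are mostly long noncoding RNAs in which the spliced exons hold no long reading frame. Several have a transcript that begins with a 5′ terminal oligopyrimidine (TOP) tract, a C followed by a run of pyrimidines, as the mRNAs of ribosomal proteins do. Translation of TOP transcripts depends on the kinase complex mTORC1, and spliced host RNAs that are translated over their short reading frames are broken down by nonsense-mediated decay (NMD), so that their level depends on both transcription and turnover. GAS5 was named for its accumulation in growth-arrested cells.

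The first 30 bases of an annotated transcript are shown for hosts that rose or fell. The TOP tract is the feature for which the family is known. Where any annotated transcript of a host began with the tract, the one shown was picked from those transcripts. All are read 5′ to 3′ on the strand of the gene from GRCh38 at the starts given by GENCODE release 29, and capitals mark the tract, a C at the first base and at least 4 further pyrimidines. Starts of this kind were shown by GAS5 (chr1:173867960-173867989, minus strand), SNHG16 (chr17:76557769-76557798, plus strand), SNHG29 (chr17:16439037-16439066, plus strand), SNHG3 (chr1:28506043-28506072, plus strand) and SNHG4 (chr5:139274102-139274131, plus strand).
GAS5: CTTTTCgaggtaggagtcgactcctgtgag
SNHG16: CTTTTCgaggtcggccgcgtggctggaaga
SNHG29: CTTTTCattcccgttgttatggaggtaggc
SNHG3: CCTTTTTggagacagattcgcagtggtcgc
SNHG4: CCTTTCCCCTCCggcctctgccggtgctgc

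No annotated transcript began in this way for SNHG32 (chr6:31835288-31835317, plus strand), SNHG26 (chr7:22854178-22854207, plus strand), SNHG15 (chr7:44986541-44986570, minus strand) or SNHG7 (chr9:136728155-136728184, minus strand). Their lowest-numbered transcripts are shown for contrast. The bases shown for SNHG32 lie inside its snoRNA SNORD48 (chr6:31835263-31835326), downstream of the annotated gene start at 31834608. They are bases of the snoRNA and no guide to the start of the host.
SNHG32: tgagtgtgtcgctgatgccatcaccgcagc
SNHG26: gaggggccttccggcaactttttggttggt
SNHG15: ccgccatcctgggccccacgtgttgcctga
SNHG7: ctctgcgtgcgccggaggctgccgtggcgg

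A TOP start was present in at least 1 annotated transcript of 15 of the 32 hosts (46.9%), of 68 of 84 genes of cytosolic ribosomal proteins (81.0%) and of 2832 of the 21430 genes of the table with an annotated transcript (13.2%). Counted over transcripts, which makes up for the many annotated forms of some hosts, the share was 39 of 333 (11.7%) for the hosts, 20.1% for the ribosomal protein genes and 2.61% for all genes. Only some forms of a host had such a start, 6 of 29 for GAS5, 2 of 8 for SNHG16 and 6 of 30 for SNHG29. The numbers were 1 of 3 for SNHG3 and 4 of 9 for SNHG4. The transcripts shown for GAS5 and SNHG16 share their first 11 bases. An annotated start is not a measured one, and the counts used here do not show which start was used.

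The libraries held 20044602 to 21670135 counts in the knockdown group and 24778469 to 26373960 in the control group. ENO1 itself averaged 102 ± 1.25 CPM (counts relative to the TMM-scaled library size) in knockdown libraries and 3262 ± 22.6 CPM in control libraries (SD, n = 3 each), a log2 fold change of -5.00 with an adjusted p of 5.98e-37 (edgeR quasi-likelihood test, two-sided, Benjamini-Hochberg over all genes tested). Mitochondrially encoded genes took 9.27 to 9.69% of the counts in knockdown libraries and 6.69 to 6.88% in control libraries, and the host gene calls numbered the same with those genes left out. Knockdown replicate 3 and control replicate 2 stood apart from the other libraries of their group. Chi-square values over degrees of freedom were 3.99 and 4.16 for knockdown replicate 3 against its group and 2.84 and 3.13 for control replicate 2 against its group, where the remaining pairs gave 2.28 (knockdown) and 2.10 (control). Of 12 myeloid identity markers all 12 were tested, 7 higher and 4 lower, with a summed level of 2721 to 2738 CPM in knockdown libraries and 2628 to 2661 CPM in control libraries. FLT3 and CD4 made up most of that sum, while LYZ averaged 51.4 ± 1.01 CPM in knockdown libraries and 274 ± 3.43 CPM in control libraries, and MPO averaged 3.66 ± 0.278 CPM in knockdown libraries and 22.4 ± 1.19 CPM in control libraries. T and NK cell markers summed to 24.0 to 26.4 CPM in knockdown libraries and 25.6 to 28.6 CPM in control libraries, with CD3E, CD3G and CD2 at 0 in every control and 1 of the 7 markers in the table high enough to test. B cell markers summed to 6.35 to 7.25 CPM in knockdown libraries and 3.98 to 5.04 CPM in control libraries, with 2 of 3 tested genes higher and MS4A1 at 0 in every control. Erythroid and megakaryocyte markers summed to 1.49 to 1.91 CPM in knockdown libraries and 0.926 to 1.93 CPM in control libraries. Epithelial and fibroblast markers summed to 45.1 to 48.3 CPM in knockdown libraries and 18.5 to 20.1 CPM in control libraries, with both tested genes, KRT8 and KRT18, higher and EPCAM at 0 in every control. The part of these differences in the host gene results was not tested, and in bulk RNA fewer cells with a transcript and less of it per cell cannot be told apart.

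The snoRNA host genes moved in both directions with the knockdown, and by modest amounts. GAS5, SNHG26, SNHG32, SNHG15, EPB41L4A-AS1, SNHG14, SNHG29, SNHG3 and SNHG17 rose, by between 8.76 and 39.4%, while SNHG4, SNHG7, SNHG10, SNHG16 and DANCR fell. That is 14 of the 29 tested hosts past an adjusted p of 0.05 (48.3%; edgeR), with 9 higher (31.0%) and 5 lower (17.2%). Among all tested genes 59.9% were called, 29.4% higher and 30.5% lower, so the share of hosts that rose was near that of genes in general and the share that fell was below it. At an unadjusted p under 0.05 the hosts numbered 10 higher and 5 lower. The libraries of the groups did not overlap for 16 hosts (55.2%), against 64.3% of all tested genes. The median log2 fold change of the hosts was 0.12, beside 0.00 over all tested genes, and their range was -0.54 to 0.48. The gap between these medians was 0.12, but 0.03 with no filter on low counts (0.10 for the hosts and 0.07 for all genes) and 0.08 with DESeq2. A fold change of at least 1.5 with a call was reached by 0 hosts in edgeR (0 also at an unadjusted p under 0.05, 0 in DESeq2 and 0 in limma-voom), against 21.1% of all tested genes, 12.3% higher and 8.77% lower.

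Both counts depended on the settings. With upper-quartile scaling 12 hosts were higher and 4 lower (75% of the calls higher), and with plain library sizes 15 were higher and 4 lower (78.9%), beside 9 and 5 (64.3%) with TMM. The share of calls that were higher among all genes moved the same way, to 54.2% with upper-quartile scaling and 56.0% with plain library sizes, beside 49.2% with TMM. A filter at 5 CPM gave 12 higher and 4 lower hosts, and DESeq2 and a threshold of 0.01 gave 8 higher and 3 lower each. Without knockdown replicate 2, without knockdown replicate 3 or without control replicate 2, 3 hosts were lower instead of 5. Over 17 alternatives other than the added fold threshold, 11 of the 14 calls held in each, 8 higher and 3 lower, and those of DANCR, SNHG17 and SNHG10 were lost in at least 1.

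**Figure D1:**
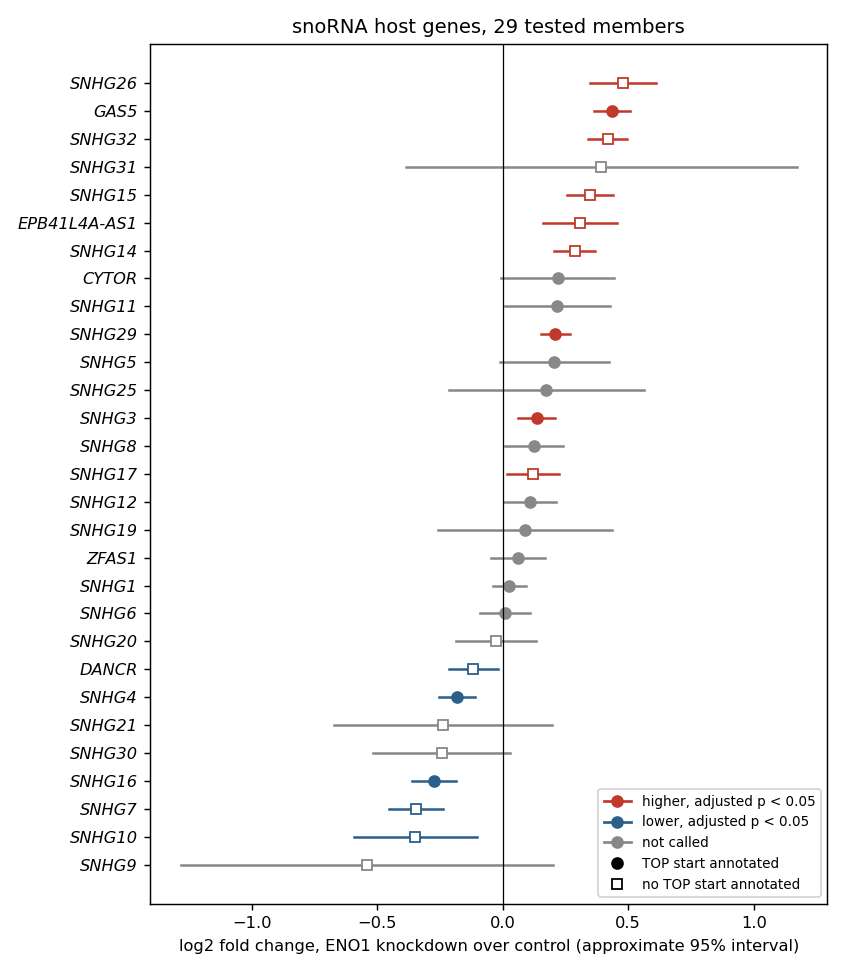
The log2 fold change of knockdown over control (horizontal axis) is plotted for each of the 29 tested snoRNA host genes. Points mark the fitted value, bars an approximate 95% interval and colours the call at an adjusted p of 0.05. Filled circles are hosts with an annotated TOP start and open squares those without. The 9 hosts that rose lie between 0.12 and 0.48 and the 5 that fell between -0.35 and -0.12, while the widest bars belong to hosts with few counts.

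Among the hosts that rose, GAS5 had the highest log2 fold change after SNHG26. GAS5 holds 10 box C/D snoRNAs and 1 annotated H/ACA snoRNA in RefSeq, and its spliced RNA is known as a decoy that binds the glucocorticoid receptor. It was measured at 254.3, 242 and 266 CPM in knockdown libraries, against 187, 195 and 182 CPM in control libraries. Every knockdown library lay above every control, and GAS5 shares no 50-base stretch with transcripts of another gene. The fitted log2 fold change was 0.44 (SE 0.04, 95% interval 0.36 to 0.51, adjusted p = 5.2e-11, edgeR), an increase of 35.3%. GAS5-AS1, which overlaps an exon of it, was near 1 CPM in both groups, at 0.793 ± 0.379 CPM in knockdown libraries and 1.16 ± 0.403 CPM in control libraries. ZBTB37, a zinc finger gene that starts within 1000 bases of GAS5 on the other strand, also rose, with 27.7 ± 2.40 CPM in knockdown libraries and 21.7 ± 1.06 CPM in control libraries (log2 fold change 0.35, adjusted p = 1.45e-04, edgeR).

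SNHG29, also known as LRRC75A-AS1 and the host of 3 box C/D snoRNAs, was the most abundant host. Its level was 589, 611 and 619 CPM in knockdown libraries and 514, 537 and 522 CPM in control libraries. The groups did not overlap, and the log2 fold change was 0.21 (SE 0.03, adjusted p = 4.50e-07, edgeR). SNHG29 had 10.3% of its 50-base stretches in transcripts of other genes, which makes its count slightly uncertain. SNHG32, annotated as protein-coding under its older symbol C6orf48 and holding 2 box C/D snoRNAs, reached 122, 120.3 and 127 CPM in knockdown libraries and 93.0, 94.8 and 88.4 CPM in control libraries. Its groups lay well apart (log2 fold change 0.42, adjusted p = 5.69e-10, edgeR), with 18.7% shared sequence.

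SNHG15, the host of the H/ACA snoRNA SNORA9, and SNHG26, the host of the C/D snoRNA SNORD93, have no annotated TOP start and hold 1 snoRNA each. SNHG15 had 68.0, 66.8 and 67.9 CPM in knockdown libraries, against 55.1, 52.4 and 51.5 CPM in control libraries, a log2 fold change of 0.35 (adjusted p = 3.13e-07, edgeR). SNHG26 had 30.03, 28.2 and 29.2 CPM in knockdown libraries, against 19.9, 21.3 and 21.5 CPM in control libraries. In both genes all knockdown libraries exceeded all controls. At 0.48 (SE 0.07, adjusted p = 5.72e-07, edgeR), SNHG26 had the highest log2 fold change of the 29, an increase of 39.4%.

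SNHG14 is the long transcript of the imprinted region on chromosome 15 that hosts the SNORD116 and SNORD115 clusters and, in neurons, runs antisense to UBE3A. RefSeq places 83 of the 120 box C/D snoRNAs of the family within it. It was counted at 119, 112 and 125 CPM in knockdown libraries and 95.5, 99.3 and 97.3 CPM in control libraries. The groups were separate, with a log2 fold change of 0.29 (adjusted p = 1.04e-06, edgeR). Exons of UBE3A and SNRPN overlap it, and these rose too, UBE3A to 121 ± 4.90 CPM in knockdown libraries, against 100.3 ± 2.48 CPM in control libraries (log2 fold change 0.27, adjusted p = 1.11e-06, edgeR). UBE3A exons on the opposite strand cover 0.457% of the exon bases of SNHG14 and those of SNRPN 0.325%. The strand setting of the counting is not given in the sources used here, and without strand reads from the bases shared with UBE3A cannot be told apart.

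EPB41L4A-AS1, the host of SNORA13, had 27.98, 24.7 and 24.7 CPM in knockdown libraries and 21.4, 18.9 and 22.2 CPM in control libraries. The groups did not overlap (log2 fold change 0.31, SE 0.08, adjusted p = 9.82e-04, edgeR), but 46.9% of its sequence is shared. The gene it shares exon positions with, EPB41L4A, was near 0, at 0.0946 CPM in knockdown libraries and 0.0804 CPM in control libraries. SNHG3, host of the SNORA73 (U17) pair that acts in 18S rRNA processing, was at 121.1, 121.5 and 125 CPM in knockdown libraries and 109.8, 115 and 109 CPM in control libraries, with a log2 fold change of 0.14 (adjusted p = 0.00285, edgeR). Its downstream neighbour on the same strand, RCC1, shares exon positions with it and had a log2 fold change of 0.18 (adjusted p = 3.99e-05, edgeR). SNHG17, with 4 H/ACA snoRNAs, showed overlapping groups, at 53.0, 50.01 and 54.4 CPM in knockdown libraries and 46.7, 50.9 and 47.1 CPM in control libraries. Its adjusted p was 0.0489 (edgeR) and ran between 0.0053 and 0.213 over the alternatives.

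Of the hosts that fell, SNHG16 and SNHG4 have some annotated transcripts with a TOP start, and SNHG7, SNHG10 and DANCR have none. SNHG16, the host of the SNORD1 genes, was lower in each knockdown library, at 68.5, 65.9 and 69.3 CPM, against 80.1, 80.9 and 85.2 CPM in control libraries (log2 fold change -0.27, adjusted p = 5.62e-06, edgeR). GAS5 and SNHG16 moved in opposite directions. Their transcripts shown above have the same first 11 bases, but the counts do not show which start was used. SNHG4 hosts 2 H/ACA snoRNAs of the SNORA74 (U19) family and had 119.9, 119 and 120.5 CPM in knockdown libraries, against 136, 131 and 140.0 CPM in control libraries. This was a log2 fold change of -0.18 (SE 0.04, adjusted p = 1.16e-04, edgeR) with no overlap. Shared sequence made up 30.1% of SNHG16 and 17.0% of SNHG4. AC015802.6, whose exons overlap SNHG16, was near 0, at 0.154 CPM in knockdown libraries and 0.239 CPM in control libraries. A MATR3 entry that overlaps SNHG4 was at 0.826 CPM in knockdown libraries and 0.613 CPM in control libraries. SIL1, which also overlaps SNHG4, had a log2 fold change of -0.02. Neither was called (adjusted p = 0.356 for MATR3 and 0.876 for SIL1, edgeR).

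SNHG7, with 2 H/ACA snoRNAs, was measured at 55.8, 55.0 and 47.6 CPM in knockdown libraries and 63.6, 69.4 and 68.5 CPM in control libraries. The groups did not overlap, and knockdown replicate 3 was the lowest library (log2 fold change -0.35, adjusted p = 6.45e-06, edgeR). FAM69B, whose exons cover 25.2% of SNHG7, also fell, with 7.48 ± 0.801 CPM in knockdown libraries and 11.9 ± 1.32 CPM in control libraries (log2 fold change -0.67, adjusted p = 8.41e-06, edgeR). SNHG10, which holds a small Cajal body RNA (scaRNA; scaRNAs guide modification of spliceosomal RNAs), had 8.74, 6.76 and 6.00 CPM in knockdown libraries and 8.75, 10.004 and 8.66 CPM in control libraries. Those groups overlapped, its adjusted p of 0.0188 (edgeR) ran between 0.0014 and 0.296 over the alternatives, and GLRX5, whose exons cover 20.1% of it, fell by 0.71 on the log2 scale (adjusted p = 4.91e-13, edgeR). DANCR, a noncoding RNA known for holding epidermal progenitors undifferentiated, had 52.9, 51.9 and 49.3 CPM in knockdown libraries, against 54.6, 57.1 and 55.4 CPM in control libraries. The DANCR groups did not overlap, but the difference was small (log2 fold change -0.12, adjusted p = 0.0426, edgeR) and its adjusted p ran between 0.0186 and 0.277 over the alternatives. How far reads of overlapping or similar genes contribute to these counts was not tested.

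**Figure D2:**
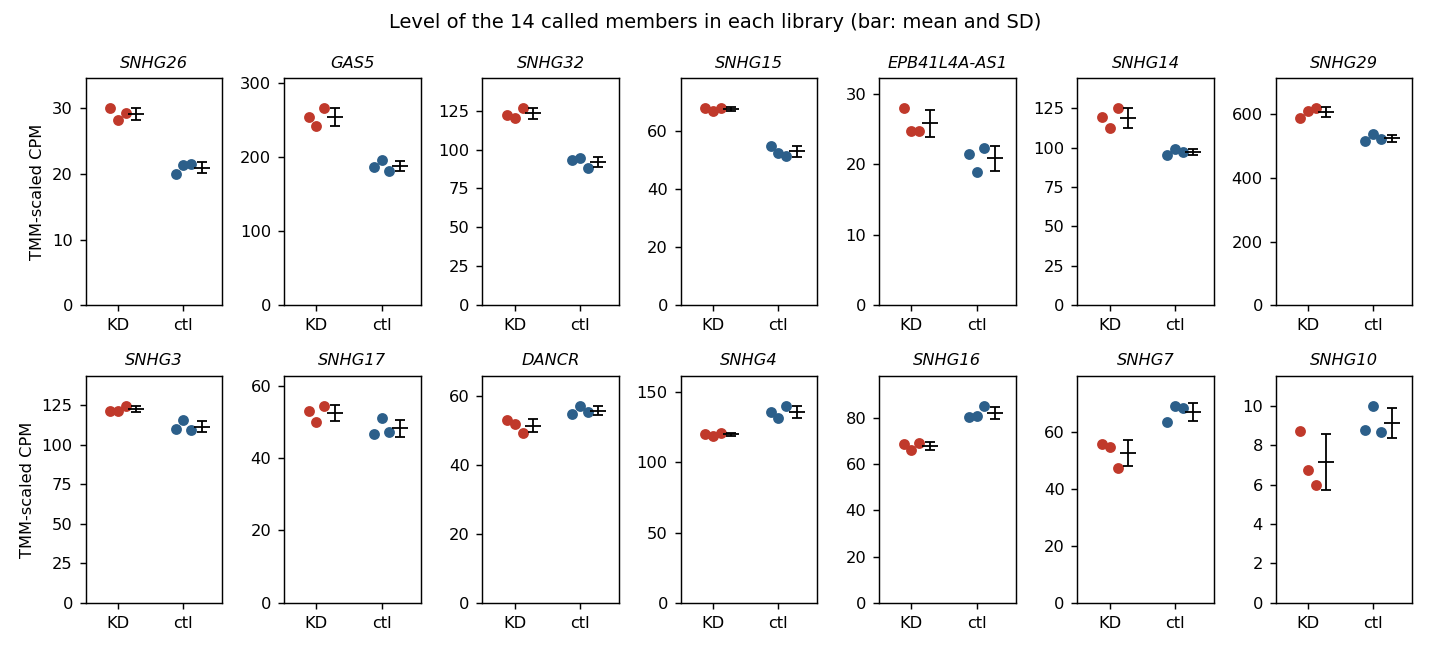
The level in CPM (vertical axes, each from 0) is shown in every library for the 14 called hosts, with points for single libraries and bars for the mean and SD of 3 knockdown (KD) and 3 control (ctl) libraries. The groups are separate in 12 panels and overlap in those of SNHG17 and SNHG10.

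Other well-known hosts were not called. SNHG1, known as the U22 host gene and holding 8 C/D snoRNAs, had 170.0, 171 and 173 CPM in knockdown libraries and 169.8, 171 and 164 CPM in control libraries, with a log2 fold change of 0.03 and an interval of -0.04 to 0.09 (adjusted p = 0.519, edgeR). The gene that starts within 1000 bases of it on the other strand, SLC3A2, a subunit of amino acid transporters, fell to 232 ± 1.11 CPM in knockdown libraries, against 299 ± 1.97 CPM in control libraries (log2 fold change -0.37, adjusted p = 2.77e-11, edgeR). SNHG6, which has 26.7% shared sequence, had 177, 171 and 190 CPM in knockdown libraries and 172, 194 and 169 CPM in control libraries. Its interval was -0.09 to 0.11 around a log2 fold change of 0.01 (adjusted p = 0.885, edgeR).

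ZFAS1 is the host of the SNORD12 genes at the promoter of ZNFX1, and 30.8% of its sequence is shared. Exons of ZNFX1 on the other strand cover 11.1% of it, and ZNFX1 rose (log2 fold change 0.14, adjusted p = 0.00916, edgeR). ZFAS1 stood at 66.5, 66.2 and 69.5 CPM in knockdown libraries and 62.2, 71.5 and 60.1 CPM in control libraries. Control replicate 2 lay above all the knockdown libraries and the other controls below them, so that ZFAS1 was not called with it (log2 fold change 0.06, interval -0.05 to 0.17, adjusted p = 0.355, edgeR) and was called higher without it (log2 fold change 0.14, adjusted p = 0.0296, edgeR). SNHG8 averaged 44.1 ± 2.65 CPM in knockdown libraries and 40.4 ± 2.69 CPM in control libraries, and SNHG12 averaged 51.5 ± 2.89 CPM in knockdown libraries and 47.8 ± 1.46 CPM in control libraries. Both missed the threshold (adjusted p = 0.0667 for SNHG8 and 0.0812 for SNHG12, edgeR). SNHG8 was called higher under 6 alternatives, with adjusted p between 0.0016 and 0.314 over all of them, and SNHG12 under 5, with adjusted p between 0.0046 and 0.285. A p above the threshold does not show equal levels.

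The remaining hosts were counted at low levels. SNHG5, which has a TOP start and 2 C/D snoRNAs, averaged 9.09 ± 0.298 CPM in knockdown libraries and 7.89 ± 0.866 CPM in control libraries. CYTOR, a cytoplasmic noncoding RNA in which RefSeq lists no snoRNA, averaged 8.73 ± 1.17 CPM in knockdown libraries and 7.51 ± 0.0854 CPM in control libraries. In SNHG5, CYTOR and SNHG11 every knockdown library lay above every control and in SNHG30 below, without a call (adjusted p = 0.113, 0.104, 0.0829 and 0.137, edgeR). SNHG9, SNHG19, SNHG20, SNHG21, SNHG25 and SNHG31 had overlapping groups and no call. The 3 hosts removed by the filter were SNHG22, with 4, 7 and 0 counts in knockdown libraries and 1 count in each control library, SNHG27, with 1, 2 and 1 counts in knockdown libraries and 0 in each control library, and SNHG28, with 0 counts in each knockdown library and 1, 0 and 2 in control libraries.

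Per length of exon the order of the hosts was different from that by count. The length used was that of the merged exons of all annotated transcripts. It can exceed that of any single spliced form, by an amount that differs between hosts. In CPM per kilobase of exon, SNHG29 reached 161 in knockdown libraries and 139 in control libraries, SNHG6 144 in knockdown libraries and 143 in control libraries, GAS5 70.0 in knockdown libraries and 51.7 in control libraries, and SNHG32 68.4 in knockdown libraries and 51.1 in control libraries. SNHG14, with 43324 merged exon bases over 26 annotated transcripts, stood at only 2.74 in knockdown libraries and 2.25 in control libraries on that scale. SNHG8 stood at 47.8 in knockdown libraries and 43.8 in control libraries. Across the 29 hosts the log2 fold change had a Spearman correlation of 0.11 with the control level, 0.11 with the number of snoRNAs held, -0.03 with the share of TOP transcripts and 0.10 with exon length, given as a description since all rest on the same 6 libraries.

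**Figure D3:**
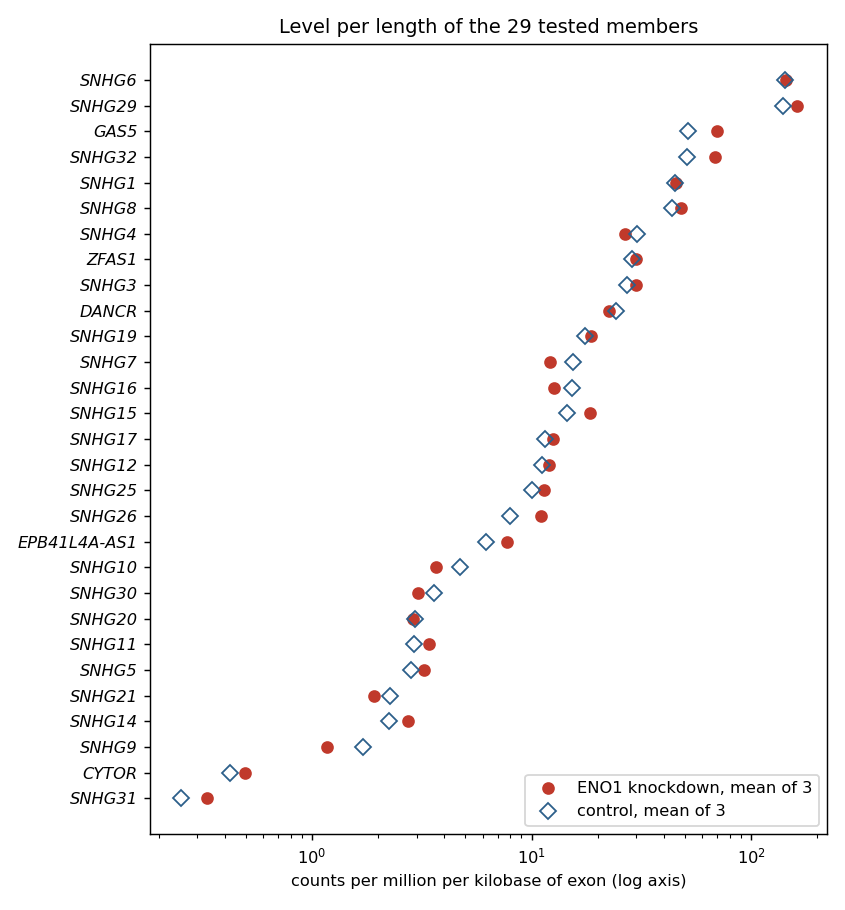
Mean CPM per kilobase of merged exon (horizontal log axis, 3 libraries a group) is plotted for each tested host in knockdown and in control libraries. SNHG29 and SNHG6 lie above 100 in both groups and the points of the groups lie close together for most hosts.

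Grouping the hosts by structure gave calls in both directions in most classes. Of 15 hosts with a TOP start, 3 rose and 2 fell (median log2 fold change 0.13), and of the 14 tested hosts without one, 6 rose and 3 fell (median 0.05). Hosts with C/D snoRNAs alone numbered 11, with 4 higher and 1 lower (median 0.09), and hosts with H/ACA snoRNAs alone also numbered 11, with 4 higher and 3 lower (median 0.13). Of the 3 with both classes GAS5 rose, and of 4 tested hosts with neither SNHG10 fell. Among the 15 hosts with at most 10% shared sequence 6 rose and 1 fell (median 0.14), and of the 14 tested hosts above it 3 rose and 4 fell (median -0.01). Among all tested genes 29.4% were called higher and 30.5% lower. The difference between these classes was not tested.

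All hosts together took 0.232, 0.228 and 0.235% of the counts in knockdown libraries and 0.200, 0.207 and 0.201% in control libraries. In CPM their sum was 2269, 2242 and 2316 in knockdown libraries and 2035, 2121 and 2040 in control libraries. SNHG29, GAS5, SNHG6 and SNHG1 made up 52.5 to 53.9% of that sum in knockdown libraries and 50.9 to 51.7% in control libraries.

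The TOP mRNAs that encode ribosomal proteins mostly fell, beside 30.5% lower and 29.4% higher among all tested genes. Of 83 tested genes of cytosolic ribosomal proteins 58 were lower and 1 higher (median log2 fold change -0.22; edgeR), and 46 to 63 were lower and 0 to 3 higher over the alternatives other than the added fold threshold. For each 1000 counts of ribosomal protein genes the hosts had 36.6 ± 0.448 counts in knockdown libraries and 28.7 ± 0.533 in control libraries (SD, n = 3 each), with no overlap between the groups. Protein-coding genes that also carry snoRNAs in their introns, a list that holds many ribosomal protein genes, numbered 44 lower and 6 higher of 60 tested (median -0.18), with 10 higher under upper-quartile scaling, plain library sizes and the 5 CPM filter. Among them NCL, the nucleolar protein nucleolin, had a log2 fold change of -0.42 and EEF2, the translocating elongation factor, one of -0.36. The host RNAs per 1000 counts of that list came to 36.1 ± 0.223 in knockdown libraries and 28.2 ± 0.356 in control libraries. These ratios contain the fall of the denominator as well as the change of the hosts.

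The mRNAs of proteins that bind snoRNAs were mostly lower, and the proteins were not measured. Of the mRNAs of the 8 core proteins of box C/D and H/ACA particles, 7 fell and 0 rose (median log2 fold change -0.33, edgeR). The number higher was 0 also at an unadjusted p under 0.05 and in DESeq2 and limma-voom. Over the alternatives other than the added fold threshold, 5 to 8 fell. FBL, the methyltransferase fibrillarin, had 266 ± 2.29 CPM in knockdown libraries and 400.2 ± 7.99 CPM in control libraries (log2 fold change -0.59, adjusted p = 9.43e-16, edgeR). NOP56 and SNU13, further C/D proteins, had log2 fold changes of -0.29 and -0.37, and NHP2 of the H/ACA particle -0.38. Assembly factors were split, with 4 higher and 4 lower of 14 (median -0.05), beside 29.4% higher and 30.5% lower among all tested genes. Among them were NOLC1, a Cajal body and nucleolar chaperone, at -0.54 and ZNHIT6, a factor for C/D assembly, at 0.44.

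Genes of the decay pathways that act on host RNAs moved in both directions, as did tested genes in general (29.4% higher and 30.5% lower). NMD and surveillance factors numbered 8 higher and 9 lower of 23 (median log2 fold change 0.02), with the endonuclease SMG6 at 48.9 ± 4.20 CPM in knockdown libraries and 30.4 ± 1.08 CPM in control libraries (0.68) and the ATPases RUVBL1 and RUVBL2 at -0.59 and -0.56. Transcripts known to have NMD-sensitive forms numbered 3 higher and 10 lower of 24 (median -0.08), with ATF3 at 0.96 and ATF4 at -0.47. Decapping and 5′ to 3′ decay factors numbered 3 higher and 6 lower of 16 (median -0.02), among them LSM4 and LSM7 at -0.51 and -0.55. The nuclear exosome and its targeting factors numbered 3 higher and 12 lower of 20 (median -0.16), with EXOSC8 at -0.51 and ZCCHC7 at 0.44.

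Regulators of TOP mRNA translation and mTORC1 numbered 4 higher and 12 lower of 21 (median log2 fold change -0.20). Over all tested genes the shares were 29.4% higher and 30.5% lower. LARP1, which binds the cap and the TOP tract, had 487 ± 5.35 CPM in knockdown libraries and 576 ± 7.26 CPM in control libraries (log2 fold change -0.24, adjusted p = 1.70e-08, edgeR). The translation repressor EIF4EBP2 was at -0.89 and the mTOR subunit MLST8 at -0.71. These are RNA levels, and the activity of mTORC1 and the translation of the hosts were not measured.

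Other long noncoding RNAs resembled the hosts in their median. A list of such genes had 13 higher and 7 lower of 33 tested (median log2 fold change 0.12), with FTX at 0.67 and TTN-AS1 at -1.18. All genes of a noncoding annotation type, with the hosts left out, had 434 higher and 201 lower of 1959 tested (median 0.17), so a median above 0 was not limited to the snoRNA hosts. Over all tested genes the shares called were 29.4% higher and 30.5% lower. The snoRNAs themselves were not analysed here.

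**Figure D4:**
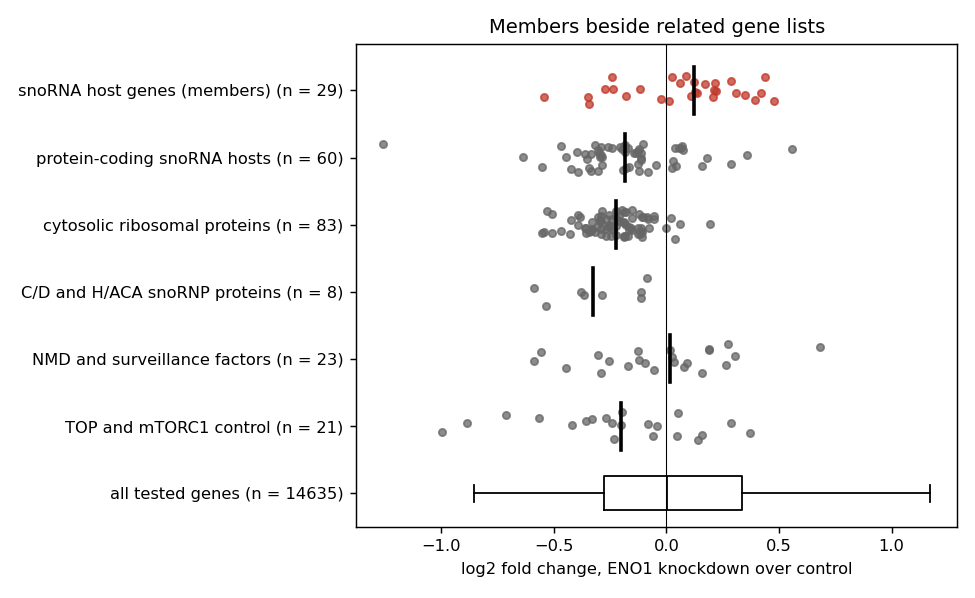
Log2 fold changes of knockdown over control (horizontal axis) are plotted as points for single tested genes of the snoRNA hosts and of 5 compared lists, with a bar at the median of each and a box plot for all tested genes (box over the quartiles, whiskers from the 5th to the 95th percentile). The hosts have a median of 0.12, the ribosomal protein genes -0.22, the protein-coding snoRNA hosts -0.18 and the snoRNP proteins -0.33.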

How the data were processed

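The authors deposited raw counts of reads for each gene, keyed by Ensembl ID, in a single table whose headers name each library by group and number. Libraries came from Trizol-extracted RNA and a TruSeq kit, per the labels' protocols. The submitters' processing notes name HISAT2 2.0.5 and hg38. No counter, annotation or strand setting is given in the sources used here.

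The test was edgeR 4.0.16 under R 4.3.3 (TMM, filterByExpr, robust glmQLFit and glmQLFTest, two-sided, Benjamini-Hochberg over the 14635 genes tested, which held 99.9% of the counts, threshold 0.05). The filter removed 8592 genes. Standard errors were approximated from the F statistic, and the 95% intervals rest on them and a normal quantile. The intervals are thus approximate and can be too narrow. That of SNHG12, 0.004 to 0.210, left out 0 at an unadjusted p of 0.0516 (edgeR). The procedure was tested on simulated data.

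Symbols were found for 23211 of the 23227 IDs. Positions, exon overlap, transcript starts and shared 50-base stretches came from GENCODE release 29, and snoRNA positions from RefSeq on GRCh38.p14. Genes with over 10% shared sequence are uncertain. The members and lists were chosen with earlier results of these data known. The text names all members, ENO1, up to 4 genes of each list by smallest adjusted p, marker genes, and genes overlapping a member or starting within 1000 bases of it on the other strand.

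Alternatives were other scalings, mitochondrial genes left out, other filters, DESeq2 1.42.0, limma-voom (limma 3.58.1), a threshold of 0.01, a 1.5-fold threshold, a replicate block and each library left out. Leaving out both libraries that stood apart was chosen after seeing the data.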

Additional observations from a re-analysis of the deposited data

How the results depend on the processing

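No called direction of a host reversed under any alternative run, and 11 of 14 calls were lost only when a 1.5-fold change was also required, which left 0 hosts higher and 0 lower, and 1805 higher and 1283 lower among all genes. The hosts' median log2 fold change of 0.12 became 0.16 with upper-quartile scaling, 0.17 with plain library sizes and 0.16 with a filter at 5 CPM, and ran from 0.080 to 0.14 with each library left out. Hosts called higher numbered 15 with plain library sizes, and 8 to 11 with each library left out. Hosts called lower numbered 3 with DESeq2, 3 at a threshold of 0.01, 3 without both libraries that stood apart, an alternative chosen after seeing the data, and 3 to 5 with each library left out. The cause of these differences was not tested. Plain library sizes moved the median of all genes by 0.05. Of 517 recomputed host values 458 kept their side of the threshold, 39 lost the call and 20 gained it, and 14 values of 4 uncalled hosts changed sign. Among the compared lists, counts moved by over 1.5 times for the protein-coding hosts that were higher (6, and 10 with upper-quartile scaling, plain library sizes and the 5 CPM filter), for ribosomal protein genes that were higher (1, and 0 to 3), and with the 5 CPM filter for other long noncoding RNAs that were higher (13, and 8) and for all noncoding genes (434 higher and 201 lower, and 159 and 67), apart from the counts with a 1.5-fold threshold. With the replicate number as a block 8 hosts were higher and 4 lower, and 4165 and 4325 of all genes. Deviations of same-numbered libraries correlated at 0.0029, 0.0092 and -0.023, not every library correlated best with its own number, and the numbers were not taken as pairs. Depth limits SNHG9, SNHG21, SNHG25 and SNHG31, whose intervals are wide, and SNHG22, SNHG27 and SNHG28, which could not be tested.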
